A study of Mus musculus with 12 samples.

Results

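Hepatic RNA at ZT0, the moment the lights go on, was compared between mice treated with Policaptil Gel Retard and mice given vehicle. The comparison took 6 of the 12 libraries of the series, 3 mice per treatment. It covered 9806 of the 23849 gene symbols listed, those with a mean of at least 1 FPKM (fragments per kilobase of transcript, scaled to the mapped total) over the 12 libraries. The mice were males of C57BL/6J background, 8 weeks old, and all were on a high-fat diet (HFD) that took 60% of its calories from fat. Policaptil Gel Retard, called Libramed in the labels, is a blend of polysaccharides that swells into a gel in the gut. It was gavaged once a day at ZT11, shortly before lights off, over the last 2 of 6 weeks on HFD, as 200 µl at 20 mg/ml. Vehicle-treated mice received the same volume of drinking water, so the control contains no inert fiber. Mice on a normal diet were not analysed here, and the 6 libraries of the series collected at ZT12 came from other animals.

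The liver makes most of the proteins of blood plasma. Cytokines such as IL-6 and IL-1 drive hepatocytes to secrete acute-phase proteins, among them serum amyloid A, orosomucoids and fibrinogen. Secreted proteins fold in the endoplasmic reticulum (ER), where chaperones assist them and a disposal pathway removes those that misfold. Heat shock proteins guard folding in the cytosol and in mitochondria. Mice eat mainly at night, so ZT0 closes the feeding phase, and many of these genes follow the time of day.

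Each library was made from the liver of a single mouse. The FPKM of a library summed to 634683 at the lowest and 697287 at the highest, and pairs of libraries correlated across genes with an r between 0.9682 and 0.9846. Read totals were not used here, so the absolute depth is unknown. The steps between the values of the lowest genes placed the depth of the 6 libraries between 1.0 and 1.24 times that of vehicle replicate 1. Of 9 hepatocyte markers 8 were tested, and their list summed to 38032 to 41914 FPKM in vehicle-treated mice and to 43721 to 53655 FPKM in gel-treated mice. The apolipoprotein gene Apoa1 weighed heavily on these sums, with a mean of 22771 FPKM with vehicle and 29394 FPKM with gel. Of the 8 markers, 4 were higher and 4 lower with gel. Albumin (Alb) is listed at 0 in all 6 libraries, which in liver is a failed estimate and not an absence of the transcript.

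The comparison of each gene used the two-sided moderated test of limma on log2(FPKM + 1). A gene is called here when its unadjusted p was under 0.05. The text of the study does not say whether its own p-values were adjusted, so the calls here may follow another rule. In gel-treated mice 335 genes (3.42% of those tested) were called higher and 570 (5.81%) lower, against 490.3 calls expected in all if nothing differed. After Benjamini-Hochberg adjustment 0 genes (0.0%) passed in limma, with a smallest adjusted p of 0.222, while a Cyber-T style test passed 69. Every call given below is therefore unadjusted. The ZT0 count of each list below is to be set against the 3.42% of all genes called higher and the 5.81% called lower. The pathway and marker lists were chosen with earlier results of these data known. Their counts therefore describe the lists and are no independent test of them. The median log2 fold change over all tested genes was −0.02. Values of the 3 gel-treated mice all lay above those of the 3 vehicle-treated mice for 509 genes (5.19%) and all below for 975 (9.94%). Among called genes 805 of 905 did not overlap. Only 15 genes called higher and 22 called lower differed by at least 1 on the log2 scale.

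The balance of directions depended on the scaling of the libraries. Median-ratio scaling gave 431 higher and 429 lower genes, so that 50.1% of calls were higher in place of 37.0%. Quantile normalization gave 447 and 469 (48.8% higher), and a correction for GC content and for the length of transcripts gave 433 and 467 (48.1% higher). Single mice mattered as well. Without gel replicate 3 the counts were 186 higher and 339 lower, and without gel replicate 2 they were 370 and 394 (48.4% higher). In an exact permutation test 3 mice against 3 allow 20 arrangements and no two-sided p below 0.1, so single genes could not pass 0.05 by that test.

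**Figure D1:**
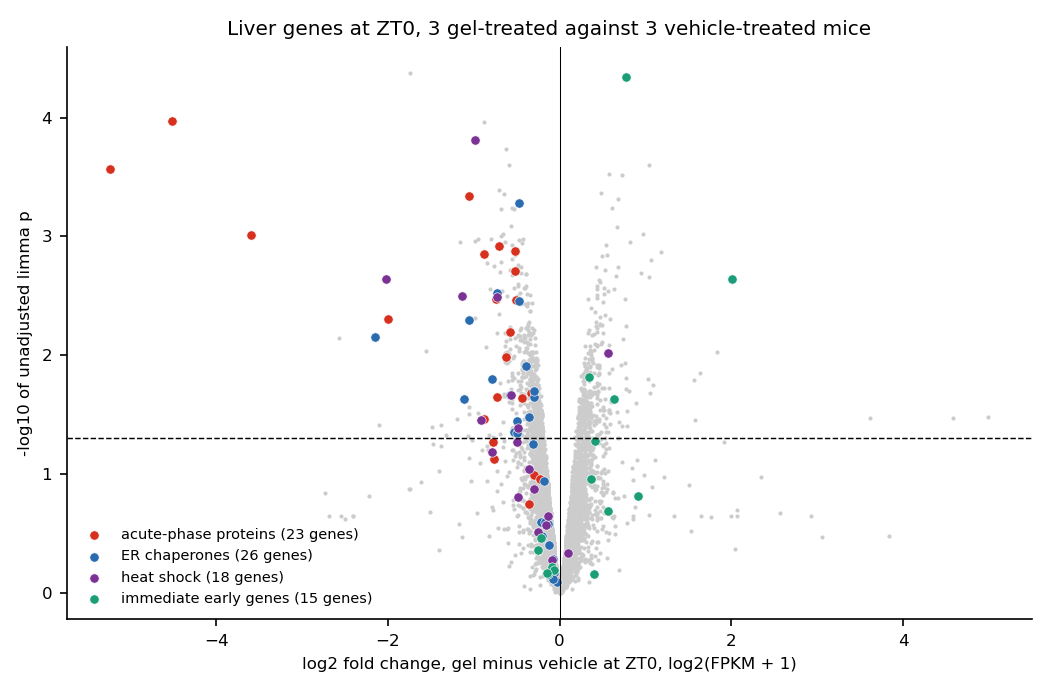
Each point is 1 of the 9806 genes tested, with the log2 fold change of gel minus vehicle at ZT0 on the x axis and −log10 of the unadjusted limma p on the y axis; the dashed line marks a p of 0.05. Colours mark acute-phase, ER chaperone, heat shock and immediate early genes, and the members of the acute-phase and ER lists all lie left of 0.

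The genes lowest in gel-treated mice were those of serum amyloid A, the apolipoproteins that associate with HDL in inflammation. Saa2 stood at 3461, 5895 and 815 FPKM in the vehicle-treated mice and at 61.1, 146 and 33.7 FPKM in the gel-treated mice. All gel-treated mice lay below the lowest vehicle-treated mouse, which was vehicle replicate 3. The mean was 42.2 times lower with gel (log2 fold change −5.23, 95% confidence interval −7.08 to −3.37, SE 0.787, adjusted p = 0.264). Saa1 stood at 6049.7, 9291 and 3252 FPKM with vehicle and at 183, 593 and 139.8 FPKM with gel. Again the groups did not overlap, and the log2 fold change was −4.51 (−5.89 to −3.13, SE 0.587, adjusted p = 0.264). Both genes stayed called in each of the 6 fits that left out a mouse, with Saa2 between −6.05 and −4.62 and Saa1 between −5.14 and −4.10.

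Saa1 (ENSMUSG00000074115.5, chromosome 7 of mm10, 46740497 to 46742980, minus strand) and Saa2 (ENSMUSG00000057465.5, chromosome 7, 46751790 to 46754313, plus strand) are neighbours that point away from each other. Short reads of such close copies can be hard to assign, and the level of each gene alone is uncertain. The upstream sequences do not bear on that and are shown to let a motif be seen in place. Of the 250 bases before each RefSeq start site, 238 could be matched in order between the copies when gaps were allowed, and 108 were equal without gaps. Capitals mark the fixed letters of a C/EBP motif (TTNNGNAA on either strand), which Saa1 holds at −182 and −86 from the start and Saa2 at −183. The Saa1 stretch is chr7:46742981-46743230 on the minus strand and the Saa2 stretch chr7:46751583-46751832 on the plus strand, both of GRCm38.p6.
Saa1: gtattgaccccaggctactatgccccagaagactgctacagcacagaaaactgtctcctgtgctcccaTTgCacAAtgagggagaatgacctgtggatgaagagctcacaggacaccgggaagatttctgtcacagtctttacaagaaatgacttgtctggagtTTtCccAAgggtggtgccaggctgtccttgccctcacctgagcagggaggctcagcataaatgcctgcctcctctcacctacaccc
Saa2: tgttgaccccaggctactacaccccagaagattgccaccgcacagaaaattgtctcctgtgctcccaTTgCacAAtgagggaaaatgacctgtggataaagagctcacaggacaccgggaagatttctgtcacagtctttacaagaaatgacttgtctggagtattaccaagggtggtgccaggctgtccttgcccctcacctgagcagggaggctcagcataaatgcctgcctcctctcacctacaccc

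Lcn2, which encodes lipocalin 2, a protein that withholds iron from bacteria, stood at 300.1, 304 and 142 FPKM with vehicle and at 9.20, 58.8 and 11.2 FPKM with gel. The mice did not overlap, although gel replicate 2 lay well above the other gel-treated mice, as it did for Saa1 and Saa2. The mean was 9.41 times lower with gel (log2 fold change −3.59, SE 0.669, adjusted p = 0.295). Orm2, an orosomucoid that carries lipophilic compounds in plasma, stood at 100.4, 65.3 and 28.8 FPKM with vehicle and at 14.0, 22.6 and 7.87 FPKM with gel (−2.0, SE 0.498, adjusted p = 0.414). Its more abundant neighbour Orm1 went from 1420, 1642 and 1521 FPKM to 664, 949 and 623 FPKM (−1.06, SE 0.174, adjusted p = 0.264). Lrg1, a secreted leucine-rich glycoprotein that was among the 10 lowest genes, stood at 2501, 2307 and 1532 FPKM with vehicle and at 901, 1128 and 771 FPKM with gel (−1.16, SE 0.222, adjusted p = 0.295). In each of these 4 genes the lowest vehicle-treated mouse exceeded the highest gel-treated mouse, and each stayed called whichever mouse was left out.

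Of the 23 acute-phase genes tested, 17 were called lower and 0 higher, against 5.81% and 3.42% of all genes. The other 6 also had log2 fold changes below 0, and the median of the list was −0.71 where that of all genes was −0.02. In 14 of the 23 the groups did not overlap, with gel lower, against 9.94% of all genes. The summed FPKM of the list was 42126, 47599 and 34285 with vehicle and 19886, 25217 and 22339.5 with gel. The median member, relative to the vehicle mean, lay at 0.10, 0.07 and −0.12 in the vehicle-treated mice and at −0.66, −0.47 and −0.58 in the gel-treated mice on the log2 scale. No single mouse set the group apart, and between 14 and 17 members were called lower when a mouse was left out.

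Within the list the size of the difference varied by gene. The chains of fibrinogen, the clotting precursor, differed little but evenly. Fgg stood at 3918, 3603 and 3693 FPKM with vehicle and at 2511, 2649.5 and 2643 FPKM with gel (−0.52, SE 0.103, adjusted p = 0.309), Fga had the same log2 fold change (−0.52, SE 0.108, adjusted p = 0.316), and Fgb gave −0.33 (SE 0.11, adjusted p = 0.502). Hpx, the heme carrier hemopexin, went from 7202, 6853 and 6228 FPKM to 3653, 4730.2 and 4028 FPKM (−0.71, SE 0.138, adjusted p = 0.295). Serpina3n, a protease inhibitor, gave −0.88 (SE 0.175, adjusted p = 0.309), and Itih3 and Itih4, heavy chains of inter-alpha-trypsin inhibitors, −0.51 (SE 0.119, adjusted p = 0.336) and −0.62 (SE 0.179, adjusted p = 0.469). Hamp, the iron hormone hepcidin, stood at 3224, 2479 and 2099 FPKM with vehicle and at 1137, 1522 and 2104 FPKM with gel, so gel replicate 3 reached the lowest vehicle-treated mouse (−0.73, SE 0.253, adjusted p = 0.506). The calls of Hamp and Fgb depended on single mice. That of Hamp was lost without vehicle replicate 1 (log2 fold change −0.57), gel replicate 1 or gel replicate 2, and that of Fgb without vehicle replicate 3 or gel replicate 1 (log2 fold change −0.29). Haptoglobin (Hp) and C-reactive protein (Crp) did not pass, with log2 fold changes of −0.30 (SE 0.16, adjusted p = 0.632) and −0.23 (SE 0.125, adjusted p = 0.638).

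The cytokine signalling genes that act on this programme did not stand out by their count of calls. Of 22 tested genes of IL-6 and IL-1 signalling, 2 were called lower and 1 higher (4 and 0 without vehicle replicate 1), close to the 5.81% and 3.42% of all genes. The list median was −0.09, and 19 of the 22 lay below 0, where 5389 of all 9806 did. Relative to the vehicle mean, the median member lay at −0.0, 0.02 and 0.02 with vehicle and at −0.13, −0.12 and −0.13 with gel. The transcription factor gene Cebpb stood at 81.2, 64.1 and 61.4 FPKM with vehicle and at 51.6, 49.8 and 45.3 FPKM with gel (−0.48, SE 0.127, adjusted p = 0.436). Stat3, which carries the IL-6 signal to the nucleus, stood at 34.6, 26.9 and 30.7 FPKM with vehicle and at 20, 26.1 and 21.0 FPKM with gel (−0.44, SE 0.136, adjusted p = 0.477). Neither gene overlapped between groups, though gel replicate 2 came within 1 FPKM of the lowest vehicle-treated mouse for Stat3. In the RefSeq promoter table, which matched 19 of the 23 acute-phase genes, 14 of the 250-base stretches held the C/EBP letters and 6 the STAT letters (TTCNNNGAA). The same letters occurred before 40.3% and 8.13% of the 27018 genes of the table, so the C/EBP match in particular is common. All 6 genes with the STAT letters (Apcs, Fga, Fgb, Hamp, Itih4 and Steap4) were called lower, as were 9 of the 13 without them. For the C/EBP letters the split ran the other way, with 10 of the 14 genes that hold them and 5 of the 5 without them called lower.

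Complement, the plasma cascade that tags microbes, was lower in part. Of 29 tested genes 6 were called lower and 0 higher, against 5.81% and 3.42% of all genes, with a median of −0.16. C4b, the main C4 gene, went from 301, 303 and 298 FPKM to 195, 266 and 207 FPKM (−0.44, SE 0.132, adjusted p = 0.469), and Serping1, the C1 inhibitor, gave −0.38 (SE 0.106, adjusted p = 0.459). Without vehicle replicate 1, the count of complement genes called lower was 12. Others of the called genes are made by macrophages. C1qa stood at 16.5, 15.7 and 14.8 FPKM with vehicle and at 11.9, 12.6 and 8.98 FPKM with gel (−0.47, SE 0.131, adjusted p = 0.459), and properdin (Cfp) gave −0.63 (SE 0.17, adjusted p = 0.45). C1qb gave −0.56 (SE 0.179, adjusted p = 0.482). Its call was lost without vehicle replicate 1 (−0.49), and without gel replicate 3 its log2 fold change was −0.37.

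Markers of Kupffer cells, the macrophages of the liver, moved the same way. C1qa and C1qb are members of both this list and complement, so their calls are counted in each. Of 13 such markers 12 were listed, none of them at 0 in all 6 libraries, and 8 were tested. Of these 5 were called lower and 0 higher, against 5.81% and 3.42% of all genes, with a median of −0.48. Vsig4, a complement receptor of Kupffer cells, stood at 3.58, 4.09 and 3.44 FPKM with vehicle and at 2.88, 2.38 and 1.73 FPKM with gel (−0.51, SE 0.141, adjusted p = 0.454). Cd68, a lysosomal protein of macrophages, gave −0.48 (SE 0.149, adjusted p = 0.482), and its groups did not overlap either. The summed FPKM of the markers ranged from 71.9 to 83.1 with vehicle and from 43.9 to 70.7 with gel, lowest in gel replicate 3, and without that mouse the median was −0.30. When the 12 libraries shared one estimate of the spread, 0 of the 8 markers were called. The part of these cells in the lower complement and acute-phase values was not tested. In bulk tissue, fewer cells of a type and less RNA per cell cannot be told apart.

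**Figure D2:**
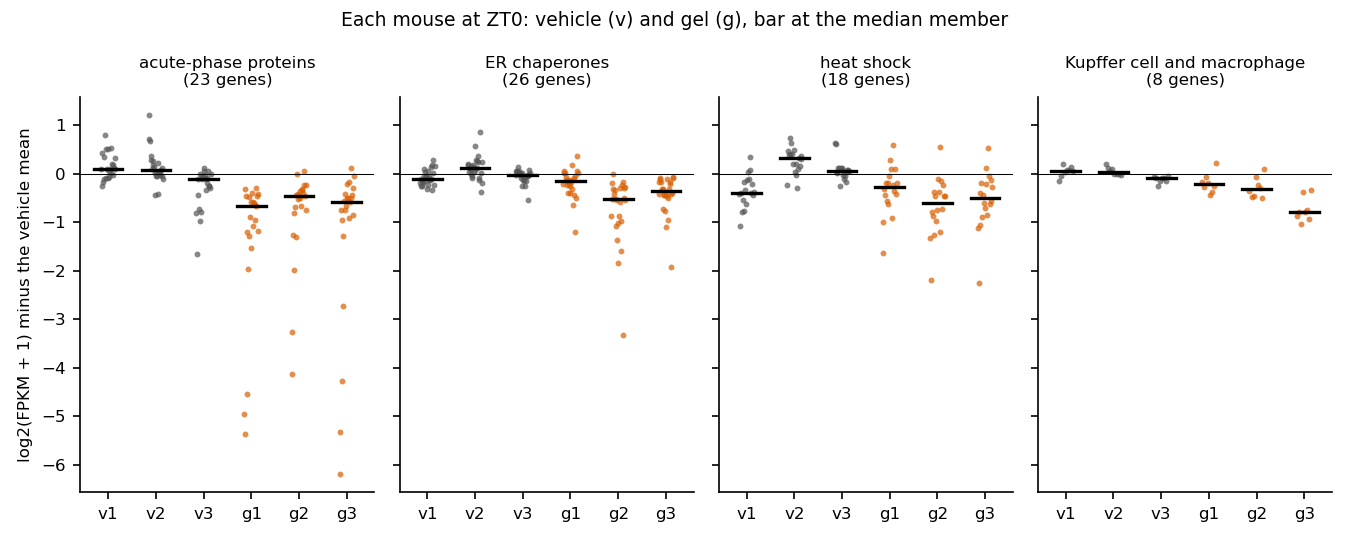
Each point is a gene of the list named above the panel, as log2(FPKM + 1) minus the mean of the 3 vehicle-treated mice (y axis), for vehicle (v1 to v3) and gel (g1 to g3) mice at ZT0; black bars are medians over the members. The medians of the 3 gel-treated mice lie below those of all vehicle-treated mice for the acute-phase, ER and Kupffer cell lists, while for heat shock vehicle replicate 1 (−0.39) lies below gel replicate 1 (−0.27).

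The ER folding genes formed the next large group. All 26 tested genes had log2 fold changes below 0, where 5389 of all 9806 did, and the median was −0.34. Of the 26, 15 were called lower and 0 higher, against 5.81% and 3.42% of all genes. In 14 of the 26 the groups did not overlap, with gel lower, against 9.94% of all genes. Edem1, which helps extract misfolded glycoproteins for disposal, was the most even, at 42.7, 42.6 and 41.7 FPKM with vehicle and at 29.6, 29.6 and 31.6 FPKM with gel (−0.47, SE 0.079, adjusted p = 0.264). Among other genes of the disposal pathway, Syvn1 and Derl3 differed more. Syvn1, the ubiquitin ligase Hrd1, stood at 135, 191 and 124 FPKM with vehicle and at 94.4, 48.5 and 76.1 FPKM with gel (−1.05, SE 0.264, adjusted p = 0.418). Sel1l, its partner, gave −0.47 (SE 0.109, adjusted p = 0.339). Derl3, a derlin of the same complex, stood at 22.3, 52.1 and 19.0 FPKM with vehicle and at 11.7, 1.92 and 6.65 FPKM with gel, a mean 4.6 times lower (−2.15, SE 0.574, adjusted p = 0.439). The groups of these 4 genes did not overlap, and each stayed called in the 6 fits without 1 mouse.

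Among the chaperones and their helpers, Dnajb9 gave −0.73 (SE 0.167, adjusted p = 0.336), Sdf2l1 −0.79 (SE 0.252, adjusted p = 0.482, or −0.51 without gel replicate 2) and Dnajc3 −0.39 (SE 0.118, adjusted p = 0.473). Hspa5, the central chaperone BiP, stood at 722, 959.6 and 819 FPKM with vehicle and at 719, 451 and 617 FPKM with gel. The highest gel-treated mouse thus nearly reached the lowest vehicle-treated mouse (−0.50, SE 0.193, adjusted p = 0.526). Its call was lost without vehicle replicate 2 (log2 fold change −0.39), vehicle replicate 3, gel replicate 2 or gel replicate 3, and without gel replicate 2 its log2 fold change was −0.31. Creld2 behaved alike, with 124, 229 and 129 FPKM against 117, 42.5 and 72.1 FPKM (−1.11, SE 0.385, adjusted p = 0.506). Its call was lost without vehicle replicate 2 (log2 fold change −0.82), gel replicate 2 or gel replicate 3. Calreticulin (Calr), a lectin chaperone of high level, was at 668, 739.8 and 755 FPKM with vehicle and at 755, 633 and 665 FPKM with gel, with overlapping groups (−0.08, SE 0.112, adjusted p = 0.869).

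Single mice weighed more on the ER list than on the acute-phase list. Relative to the vehicle mean, its median member lay at −0.11, 0.12 and −0.02 in the vehicle-treated mice and at −0.14, −0.52 and −0.35 in the gel-treated mice, so that gel replicate 1 lay next to vehicle replicate 1. The number of genes called lower was 9 without vehicle replicate 3, 9 without gel replicate 2 and 8 without gel replicate 3. It was 10 without vehicle replicate 2 and 16 without vehicle replicate 1 or gel replicate 1. The median stayed between −0.28 and −0.43 in these 6 fits.

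The promoters of the ER genes share a known motif, the ER stress element, made of CCAAT and CCACG separated by 9 bases. It was searched on both strands in the 250 bases before the RefSeq start sites (GRCm38.p6). Of 21 ER genes matched to the promoter table, 9 held it (Calr, Canx, Creld2, Derl3, Dnajc3, Hsp90b1, Hspa5, Pdia6 and Syvn1), against 35 of all 27018 genes (0.13%). Of those 9, 6 were called lower in gel-treated mice, and of the 12 without the motif 7 were. Of the 19 acute-phase and 14 heat shock genes matched, 0 held it. The stretches of 4 called genes are shown to let the motif be seen in place, with its fixed letters in capitals. Derl3 (chr10:75893148-75893397, plus strand) and Creld2 (chr15:88819396-88819645, plus strand) hold it in reverse orientation, starting 156 and 126 bases before the start site. Syvn1 (chr19:6046326-6046575, plus strand) and Hspa5 (chr2:34771840-34772089, plus strand) hold it forward, 44 and 65 bases before the start site.
Derl3: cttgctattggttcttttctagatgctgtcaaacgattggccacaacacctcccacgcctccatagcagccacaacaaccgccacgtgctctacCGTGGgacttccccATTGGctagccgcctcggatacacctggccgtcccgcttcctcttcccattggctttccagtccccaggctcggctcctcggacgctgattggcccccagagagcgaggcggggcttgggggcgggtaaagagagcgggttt
Creld2: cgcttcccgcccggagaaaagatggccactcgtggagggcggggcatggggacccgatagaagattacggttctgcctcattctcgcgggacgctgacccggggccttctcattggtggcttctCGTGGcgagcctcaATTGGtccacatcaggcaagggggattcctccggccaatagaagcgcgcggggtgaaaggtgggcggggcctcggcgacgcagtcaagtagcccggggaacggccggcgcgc
Syvn1: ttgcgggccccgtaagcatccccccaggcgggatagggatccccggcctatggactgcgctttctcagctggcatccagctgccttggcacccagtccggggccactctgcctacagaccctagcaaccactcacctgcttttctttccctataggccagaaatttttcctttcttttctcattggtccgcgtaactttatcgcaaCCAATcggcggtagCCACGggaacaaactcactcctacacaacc
Hspa5: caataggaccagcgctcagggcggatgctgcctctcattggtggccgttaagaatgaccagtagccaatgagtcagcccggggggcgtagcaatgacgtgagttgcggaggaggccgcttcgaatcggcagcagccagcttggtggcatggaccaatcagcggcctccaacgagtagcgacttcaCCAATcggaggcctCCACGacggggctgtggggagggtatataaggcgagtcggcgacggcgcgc

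Heat shock genes, most of them of the cytosol and some of mitochondria, were lower in part. Of 18 tested genes 7 were called lower and 1 higher, against 5.81% and 3.42% of all genes, and the median was −0.48. Bag3, a partner of Hsp70 in the removal of damaged proteins, stood at 35.7, 44.7 and 35.7 FPKM with vehicle and at 20.1, 16.1 and 20.8 FPKM with gel (−0.99, SE 0.137, adjusted p = 0.264). The inducible Hsp70 gene Hspa1b stood at 9.86, 30.6 and 34.2 FPKM with vehicle and at 6.41, 4.06 and 3.84 FPKM with gel, a mean 5.21 times lower (−2.02, SE 0.437, adjusted p = 0.324). Its near-identical copy Hspa1a gave −1.14 (SE 0.263, adjusted p = 0.336), and the share of each copy is uncertain. Dnajb1, an Hsp40 that delivers clients to Hsp70, gave −0.73 (SE 0.168, adjusted p = 0.336). In all 4 genes the groups did not overlap, and vehicle replicate 1 was the lowest vehicle-treated mouse or equal to it.

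The gene called higher, Cirbp, encodes an RNA-binding protein that is known to be induced by cold. It stood at 14.8, 9.15 and 11 FPKM with vehicle and at 17.7, 17.3 and 17.0 FPKM with gel (0.56, SE 0.159, adjusted p = 0.459), opposite to the heat shock genes. Vehicle replicate 1 lay apart from the other vehicle-treated mice. Its median member lay at −0.39, theirs at 0.32 and 0.07, and those of the gel-treated mice at −0.27, −0.59 and −0.50. Without vehicle replicate 1 the difference was larger, with 12 genes called lower and a list median of −0.70. Without vehicle replicate 2 (list median −0.27), gel replicate 2 or gel replicate 3 the number called lower was 4. Among 18 tested targets of ATF4 and amino acid stress, 2 were called lower (4 without vehicle replicate 1), Cebpb (above) and Ddit3, the transcription factor CHOP. Ddit3 stood at 38.8, 23.0 and 33.3 FPKM with vehicle and at 17.9, 16.6 and 20.8 FPKM with gel (−0.73, SE 0.191, adjusted p = 0.436), without overlap.

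**Figure D3:**
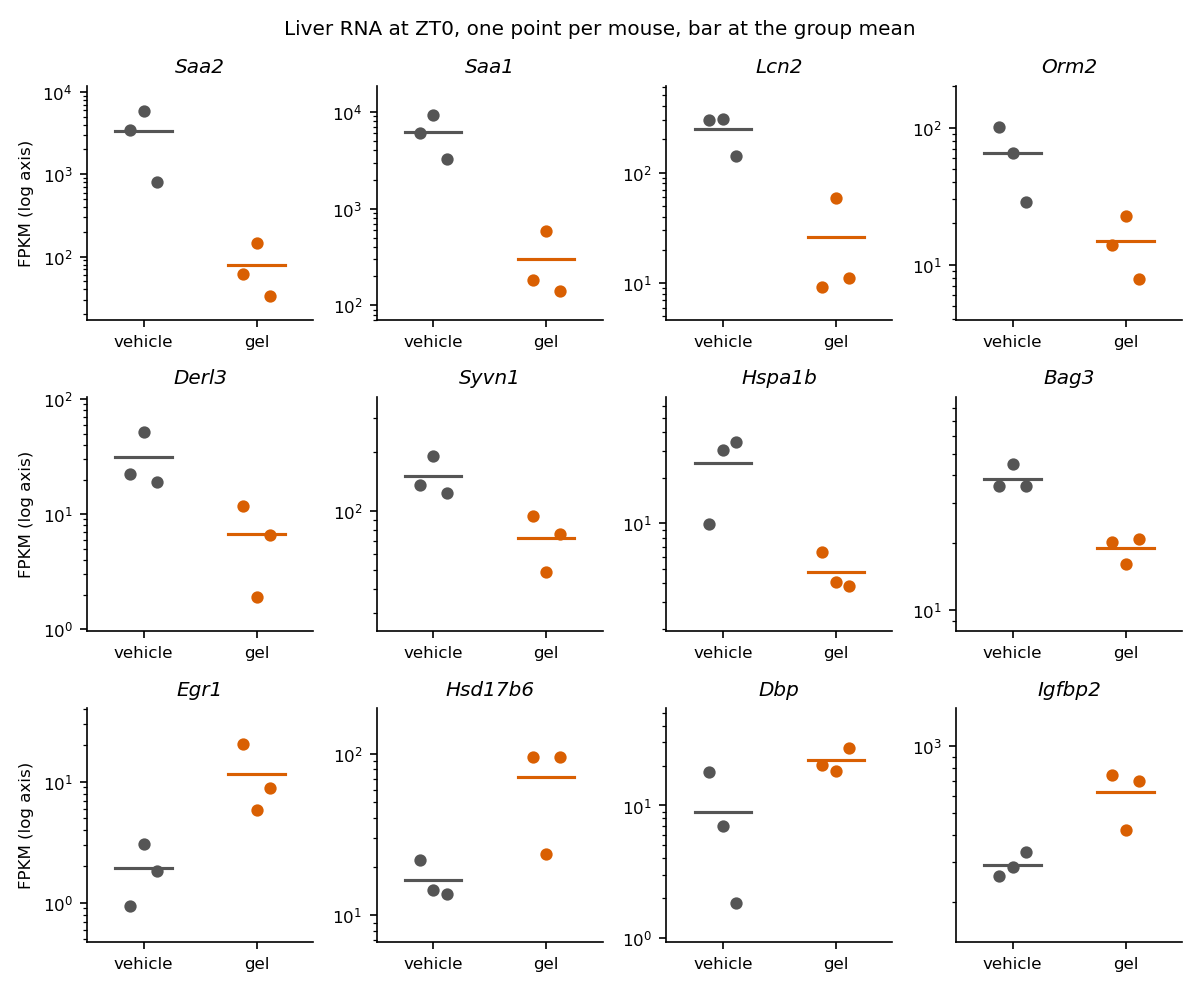
FPKM of 12 genes named in the text, on a log axis, with 1 point per mouse at ZT0 (3 vehicle, 3 gel) and a bar at the group mean. The upper 8 genes are lower and the last row is higher in all gel-treated mice, with the smallest gap for Dbp (17.9 FPKM in the highest vehicle-treated and 18.2 FPKM in the lowest gel-treated mouse).

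In the other direction, the immediate early genes, which respond within minutes to growth signals, had the highest median of the 32 pathway lists (0.37). Of 15 tested, 4 were called higher and 0 lower, while 9 lay above 0 and 6 below. The median ranged from 0.21 to 0.55 when a mouse was left out, lowest without gel replicate 1. Ier2 stood at 20.8, 23.3 and 21.8 FPKM with vehicle and at 37.1, 36.7 and 40.2 FPKM with gel, among the smallest p of all genes (0.77, SE 0.087, adjusted p = 0.222). Egr1, a zinc finger transcription factor, stood at 0.943, 3.07 and 1.82 FPKM with vehicle and at 20.4, 5.90 and 8.89 FPKM with gel (2.01, SE 0.435, adjusted p = 0.324). Both stayed called without any 1 mouse. Jund gave 0.34 (SE 0.108, adjusted p = 0.482), a call that was lost without gel replicate 3 (0.28). Jun gave 0.63 (SE 0.219, adjusted p = 0.506), but its call was lost without vehicle replicate 1 (log2 fold change 0.56) or vehicle replicate 3, and it was 0.38 without gel replicate 3.

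The 10 highest and 10 lowest genes were taken among called genes without overlap, small RNAs left out. The small RNAs Snora28, Snora52 and Mir6353 were called higher too, but they are listed at 0 in all 3 vehicle libraries and in 1 gel library each, so no fold is given. Hsd17b6, a steroid and retinol dehydrogenase, stood at 22.0, 14.3 and 13.6 FPKM with vehicle and at 95.2, 23.8 and 95.9 FPKM with gel (1.83, SE 0.519, adjusted p = 0.459). Foxq1, a forkhead transcription factor, stood at 5.11, 4.26 and 3.56 FPKM with vehicle and at 34.3, 6.30 and 15.9 FPKM with gel (1.63, SE 0.506, adjusted p = 0.482, or 1.07 without gel replicate 1). In both genes gel replicate 2 was the lowest gel-treated mouse and lay close to the vehicle-treated mice. Clec2h, a C-type lectin gene, lay between 0.486 and 0.775 FPKM in vehicle-treated and between 1.18 and 9.38 FPKM in gel-treated mice (1.56, SE 0.497, adjusted p = 0.482, or 1.01 without gel replicate 3). Clic3 (1.18, SE 0.232, adjusted p = 0.309) and Adamts7 (1.04, SE 0.155, adjusted p = 0.264) were low genes, with at most 1.26 FPKM in a vehicle-treated mouse. The joint entry Hba-a1,Hba-a2 of the alpha globins stood at 90.5, 59.0 and 177 FPKM with vehicle and at 182, 219 and 215 FPKM with gel (1.05, SE 0.356, adjusted p = 0.502), and its call was lost without vehicle replicate 1, gel replicate 2 (log2 fold change 1.0) or gel replicate 3, while without vehicle replicate 2 it was 0.69. The 3 red cell entries listed summed to 304 to 717 FPKM with vehicle and at 572 to 667 FPKM with gel, and the part of blood in this value was not tested.

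Among the 10 lowest genes, 3 fell outside the groups above. Crybb3, a beta-crystallin, had the smallest p of all genes, with 5.82, 5.02 and 5.41 FPKM with vehicle and at 0.641, 1.67 and 0.625 FPKM with gel (−1.74, SE 0.196, adjusted p = 0.222). Scara5, a scavenger receptor that binds ferritin, stood at 1.91, 7.58 and 6.23 FPKM with vehicle and at 1.06, 1.70 and 0.275 FPKM with gel (−1.56, SE 0.44, adjusted p = 0.459). Prtn3, a serine protease known from neutrophil granules, stood at 25.6, 5.50 and 9.92 FPKM with vehicle and at 0.453, 4.41 and 0.151 FPKM with gel (−2.57, SE 0.688, adjusted p = 0.439). Of the 8 neutrophil markers listed 2 were tested and 0 called, and their summed FPKM was 1.68 to 11.2 with vehicle and 6.84 to 11 with gel.

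Igfbp2, which binds insulin-like growth factors, stood at 262, 286 and 333 FPKM with vehicle and at 744, 421 and 697 FPKM with gel, a mean of 2.11 times that with vehicle (1.04, SE 0.224, adjusted p = 0.324). Fabp1, the fatty acid binding protein of hepatocytes, was one of the most abundant genes, at 10665, 12739 and 12648 FPKM with vehicle and at 20286, 16659.8 and 18893 FPKM with gel (0.63, SE 0.141, adjusted p = 0.333). Neither gene overlapped between groups. Among 36 tested genes of fat oxidation and ketogenesis 3 were called higher and 1 lower (median 0.09). The count called higher was 7 without vehicle replicate 2, 6 without vehicle replicate 1 and 1 without vehicle replicate 3.

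For lipid storage the median was −0.18 over 17 tested genes, of which 2 were called lower, against 6 without gel replicate 2 and 0 without gel replicate 3. Plin4, a coat protein of lipid droplets, stood at 1.19, 2.56 and 1.59 FPKM with vehicle and at 0.879, 1.10 and 0.540 FPKM with gel (−0.58, SE 0.199, adjusted p = 0.506). Its call was lost without gel replicate 3 (log2 fold change −0.45) or vehicle replicate 2, where its log2 fold change was −0.38. Cfd, adipsin, is made by fat cells and belongs to complement. It stood at 7.97, 2.85 and 7.10 FPKM with vehicle and at 0.613, 4.99 and 0.309 FPKM with gel, with overlapping groups (−1.49, SE 0.594, adjusted p = 0.532), and its call was lost without vehicle replicate 1, vehicle replicate 3, gel replicate 1 or gel replicate 3 (log2 fold change −1.07). Of the 7 adipocyte markers 3 were at 0 in all 6 libraries, and their summed FPKM ranged from 12.9 to 21.3 with vehicle and from 16.0 to 16.8 with gel. Pparg, the nuclear receptor of fat storage, gave 0.37 (SE 0.246, adjusted p = 0.7), Cidec, a droplet fusion protein, −0.32 (SE 0.2, adjusted p = 0.682), and the fatty acid transporter Cd36 −0.19 (SE 0.32, adjusted p = 0.889), and the groups overlapped in all 3.

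Cholesterol synthesis had a list median of 0.33, second to the immediate early genes among the pathway lists, and 23 of its 25 tested genes lay above 0, but 0 were called. The vehicle-treated mice spread widely, with the median member at 0.52, −0.69 and 0.14 relative to their mean and the gel-treated mice at −0.10, 0.54 and 0.45. Without vehicle replicate 2, the lowest mouse, the list median was −0.01. Without vehicle replicate 1 it was 0.60 with 6 genes called higher. Fatty acid synthesis was similar, with a median of 0.19, or −0.20 without vehicle replicate 2, and 0 of 23 genes called.

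Of 32 tested drug-metabolizing enzymes of the Cyp2 and Cyp3a families, 5 were called higher and 2 lower (median 0.15). All genes had 3.42% called higher and 5.81% lower, so the lower count lay near the share of all genes. Cyp2c67 stood at 83.7, 51.3 and 55.6 FPKM with vehicle and at 145, 105 and 147 FPKM with gel (1.06, SE 0.215, adjusted p = 0.316), without overlap. Cyp2d40 went from 153, 175 and 176 FPKM to 121, 107 and 86.9 FPKM (−0.68, SE 0.139, adjusted p = 0.316) and Cyp3a13 gave −0.58 (SE 0.149, adjusted p = 0.436). Cyp2c genes are close copies of each other, which leaves the share of each uncertain. The count of members called higher moved with single mice, from 1 without gel replicate 3 to 12 without vehicle replicate 1. It was 2 without vehicle replicate 3, 3 without vehicle replicate 2 or gel replicate 1 and 9 without gel replicate 2. Of 32 tested conjugating enzymes 3 were called higher and 0 lower (median 0.16, with 7 higher without vehicle replicate 1 or gel replicate 2 and 1 without any of vehicle replicates 2 and 3 or gel replicate 3), with the sulfotransferase Sult1c2 at 1.80, 1.04 and 1.25 FPKM with vehicle and at 2.5, 3.43 and 3.57 FPKM with gel (0.82, SE 0.157, adjusted p = 0.295).

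Single genes with no overlap between groups were found in several other lists. Csad, an enzyme of taurine synthesis, gave 0.55 (SE 0.11, adjusted p = 0.309), while 3 of 40 genes of amino acid catabolism were called lower. Trib1, a pseudokinase that acts on C/EBP proteins and plasma lipids, stood at 10.8, 11.1 and 11.2 FPKM with vehicle and at 14.6, 13.7 and 14.1 FPKM with gel (0.33, SE 0.077, adjusted p = 0.336). Hmox1, which breaks down heme, gave −0.64 (SE 0.178, adjusted p = 0.456). Slc39a14, a zinc and iron importer induced in the acute phase, gave −0.40 (SE 0.089, adjusted p = 0.333), and Slc39a4, another zinc importer, 0.49 (SE 0.126, adjusted p = 0.436). In coagulation, where 2 of 21 genes were called in each direction, the fibrinolysis inhibitor Cpb2 stood at 311, 336 and 287 FPKM with vehicle and at 225, 225 and 229 FPKM with gel (−0.45, SE 0.096, adjusted p = 0.316), and prekallikrein (Klkb1) gave 0.44 (SE 0.116, adjusted p = 0.436). Each of these 7 genes stayed called in all fits without 1 mouse.

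Clock genes, whose levels turn over within the day, were mostly not called. Of 12 evening genes 2 were called higher and 0 lower (median 0.05), and of 5 morning genes 1 was called lower. All 5 morning genes lay below 0 (median −0.32). The number of them called lower was 3 without vehicle replicate 1 and 0 without vehicle replicate 3, gel replicate 2 or gel replicate 3. Dbp, an output factor of the clock, stood at 17.9, 6.97 and 1.85 FPKM with vehicle and at 20.3, 18.2 and 27.2 FPKM with gel (1.58, SE 0.609, adjusted p = 0.526). The vehicle-treated mice themselves spread widely, and the highest of them came close to the lowest gel-treated mouse. The call of Dbp was lost when any mouse but vehicle replicate 1 was left out (1.42 without gel replicate 3), and its log2 fold change was 0.88 without vehicle replicate 3. Nr1d2, a repressor of the clock, gave 0.43 (SE 0.148, adjusted p = 0.506) and 0.26 without vehicle replicate 3, and its call was lost without any of the gel replicates. Nfil3, which opposes Dbp, gave −0.56 (SE 0.206, adjusted p = 0.521), and its call was lost when any mouse but vehicle replicate 2 was left out (−0.36 without vehicle replicate 3).

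The lists of housekeeping complexes had medians near 0. Of 73 respiratory chain subunits 2 were called higher and 0 lower (median 0.06), but 9 higher without gel replicate 2 or with quantile normalization, 7 with the correction for GC content and length and 6 with median-ratio scaling. Of 70 cytosolic ribosomal proteins 1 was called in each direction (−0.05), and of 36 proteasome subunits (0.01) and 9 tubulins (0.03) 0 in either. Interferon-stimulated genes had 1 of 32 called lower (0.01). Bile acid genes had 2 of 23 called higher (0.15), glucose handling 2 of 22 higher (−0.08), the insulin and IGF axis 3 of 23 higher (0.01), NRF2 targets 1 of 16 lower (0.07) and apolipoproteins 3 of 23 higher and 1 lower (0.10). Zinc, iron and heme genes had 1 of 26 called higher and 3 lower (−0.04), collagens and matrix 1 of 14 higher (0.19), and cell cycle genes 1 of 8 lower (−0.07). MHC class II presentation had 1 of 6 called lower (−0.32), but 6 of 6 without vehicle replicate 2 (−0.55), and its median was −0.07 without vehicle replicate 1. In these lists of few calls, counts moved with single mice in others as well, such as 6 lower zinc, iron and heme genes without vehicle replicate 3, 5 lower ribosomal protein genes without vehicle replicate 2 and 0 higher bile acid genes without vehicle replicate 2.

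Markers of other resident cells were called in smaller numbers, though differences between marker lists were not tested. In the fit of all 12 libraries, where 0 of 8 Kupffer cell markers were called, 1 of 8 endothelial and 2 of 7 stellate cell markers were. In the ZT0 fit, of 8 tested endothelial markers 3 were called higher (median 0.17), or 1 without vehicle replicate 2, vehicle replicate 3 or gel replicate 3, with Kdr, the VEGF receptor, at 1.38, 1.55 and 1.20 FPKM with vehicle and at 1.76, 2.15 and 2.37 FPKM with gel (0.38, SE 0.11, adjusted p = 0.469). Of 7 stellate cell markers Des alone was called, higher with gel (0.39, SE 0.116, adjusted p = 0.469), and of 4 cholangiocyte markers Sox9 alone, lower with gel (−0.59, SE 0.172, adjusted p = 0.469). No marker of T and NK, B or pancreatic acinar cells or of skeletal muscle was called, with 1, 0, 2 and 2 of them tested. Summed levels of the pancreatic markers overlapped between groups, at 47.7 to 71.2 FPKM with vehicle and at 53.5 to 76.4 FPKM with gel.

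**Figure D4:**
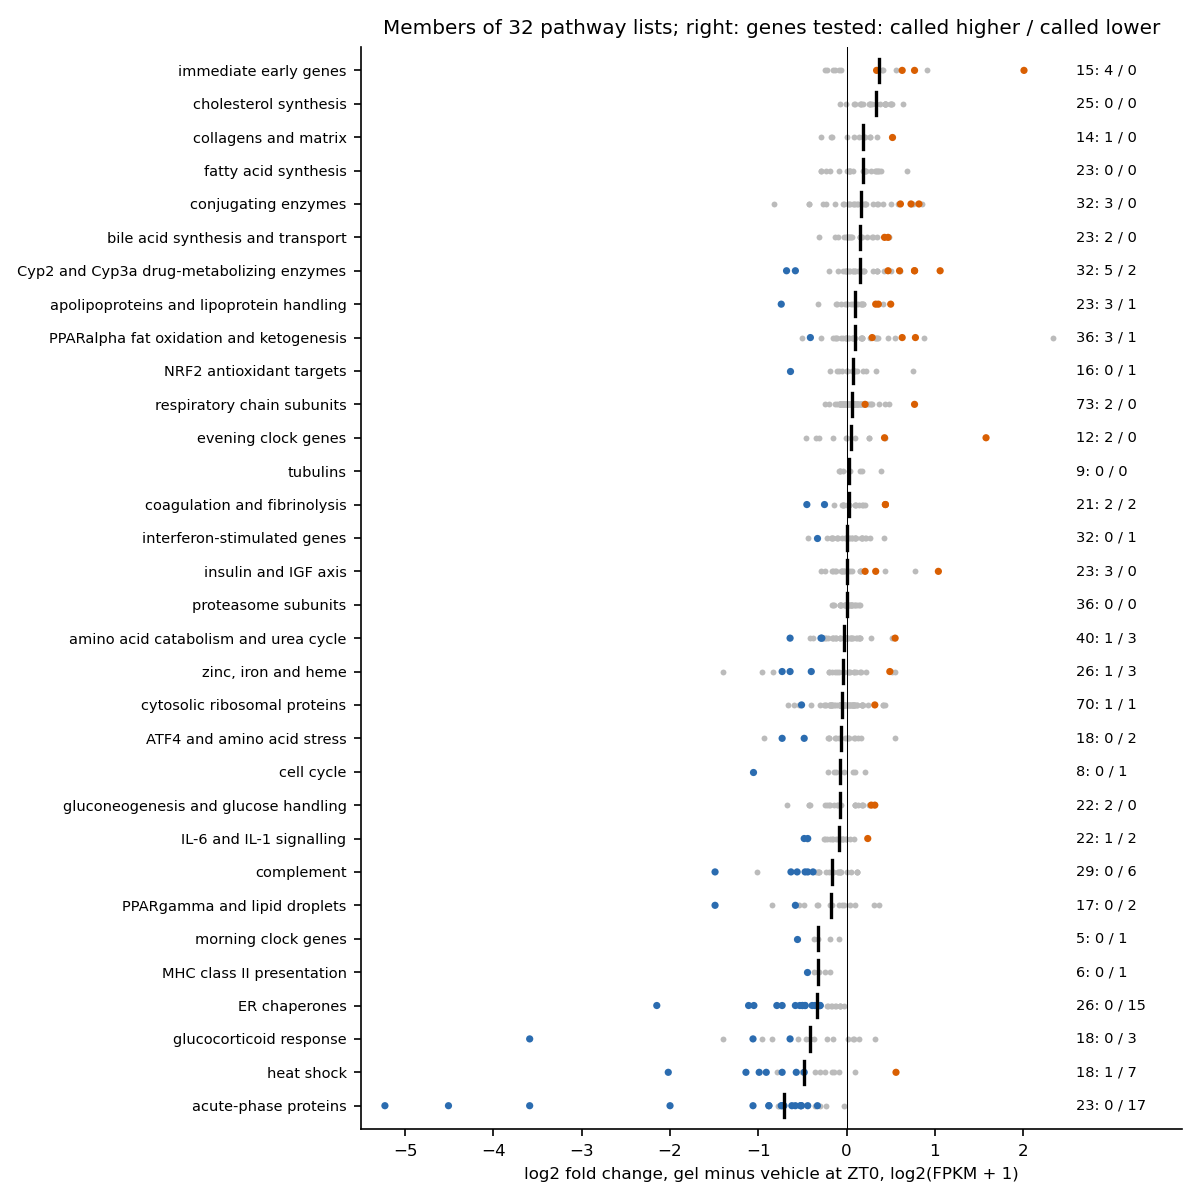
Each point is a tested member of 1 of 32 pathway lists, placed by its log2 fold change of gel minus vehicle at ZT0 (x axis); orange and blue points are called higher and lower, grey points are not called, and the black bar is the list median. The numbers on the right give the genes tested and those called higher and lower, from 0 of 23 and 17 of 23 for the acute-phase proteins at the bottom to 4 and 0 of 15 for the immediate early genes at the top.

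The ZT12 mice, collected about the time of lights off, give the same contrast in other animals. There 301 genes (3.07%) were called higher and 360 (3.67%) lower with gel. Of the 335 genes called higher at ZT0, 185 (55.2%) also lay above 0 at ZT12, where 45.6% of all tested genes did, 23 were called higher at both times and 7 were called lower at ZT12. Of the 570 called lower, 323 (56.7%) lay below 0 at ZT12, against 54.4% of all genes, 28 were called lower at both times and 16 were called higher at ZT12. The median log2 fold change of these genes went from 0.35 at ZT0 to 0.02 at ZT12 and from −0.33 to −0.02. The difference between the times was called in the test of the interaction for 650 genes (6.63%), among them 120 and 207 of the ZT0 calls, and 0 passed the adjustment in limma. The ZT0 calls were chosen on their ZT0 values. That choice alone shrinks their medians in other mice and adds to their interaction calls.

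Differences between lists across the times were not tested, and the median difference between the log2 fold changes at ZT0 and ZT12 was −0.28 for both the acute-phase and the ER list. List counts at ZT12 are to be set against the 3.07% of all genes called higher there and the 3.67% called lower. Interaction counts are to be set against 6.63% of all genes. The acute-phase list kept a median below 0 (−0.30), with 5 genes called lower and 1 higher, and the interaction was called in 3 of its 23 genes. Lrg1 at ZT12 stood at 1304, 1545 and 2003 FPKM with vehicle and at 948, 1120.3 and 869 FPKM with gel (−0.71, adjusted p = 0.729). Fgg (−0.29, adjusted p = 0.729), Fga (−0.28, adjusted p = 0.729), Fgb (−0.26, adjusted p = 0.729) and Serpina3n (−0.60, adjusted p = 0.729) were called lower at both times. Saa1 was not, and its ZT12 values of 1116, 5588 and 9336 FPKM with vehicle and of 2459.8, 9887 and 942 FPKM with gel overlapped over nearly their whole range (−0.45, not called). Saa2 overlapped in the same way (−1.0, not called). The interaction was called for both, with adjusted p of 0.597 and 0.751.

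Neither folding list was lower at ZT12. The ER list had a median of −0.03 there with 1 gene called lower, P4hb, a disulfide isomerase (−0.19, adjusted p = 0.729), and the interaction was called in 5 of 26 genes. For Edem1 the log2 fold change at ZT12 was 0.11 and for Syvn1 0.21, and the interaction was called for both (adjusted p of 0.337 and 0.597). Derl3 (−1.12), Dnajb9 (−0.23) and Sel1l (−0.15) stayed below 0 at ZT12 without being called. Their interaction was called for Sel1l but not for Derl3 or Dnajb9. P4hb itself was called at ZT0 (−0.30, SE 0.1, adjusted p = 0.502), though not without vehicle replicate 3 or gel replicate 3 (log2 fold change −0.29). The heat shock list had a median of 0.12 at ZT12, and the interaction was called in 9 of 18 genes, with Bag3 at 0.48 there (adjusted p = 0.519 for the interaction). Egr1 (−0.32) and Ier2 (0.13) were not called at ZT12, and the interaction was called for both. Igfbp2 was called higher at both times, with 392, 288 and 389 FPKM against 669, 435 and 557 FPKM at ZT12 (0.63, adjusted p = 0.729), and its interaction was not called. Pparg (−0.59) and Cd36 (−0.76) were called lower at ZT12, and Cidec (−0.46) was not (adjusted p of 0.729 for each). The interaction was called for Pparg (adjusted p = 0.663) but not for Cd36 or Cidec. The study reports from qPCR that the gel blocked the rise of these genes at ZT12.

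Genes induced by glucocorticoids, which peak before the active phase, had list medians of opposite sign at the times. At ZT0, 3 of 18 were called lower and 0 higher (median −0.41). At ZT12, 5 were called higher and 0 lower (0.31), against 3.07% and 3.67% of all genes. The interaction was called in 6 of 18, against 6.63% of all genes. The signs did not turn in every member, since Lcn2 lay below 0 at both times (−3.59 and −1.34). Tat, a liver enzyme of tyrosine breakdown, stood at 499.5, 615 and 834 FPKM with vehicle and at 373, 411 and 441 FPKM with gel at ZT0 (−0.64, SE 0.189, adjusted p = 0.469). At ZT12 it stood at 365, 569 and 829 FPKM with vehicle and at 1013, 891 and 1397 FPKM with gel (0.96, adjusted p = 0.729). The gel-treated mice lay below all vehicle-treated mice at ZT0 and above them at ZT12, and the interaction was called (adjusted p = 0.519).

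**Figure D5:**
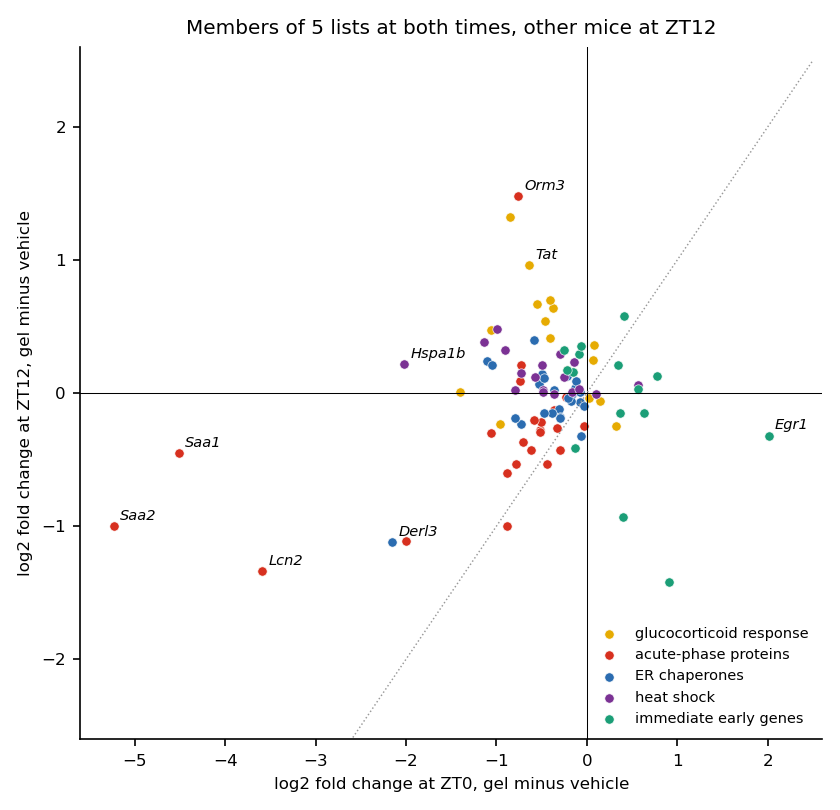
Log2 fold change of gel minus vehicle at ZT0 (x axis) and at ZT12 (y axis) for the tested members of 5 lists; the dotted line marks equal values, and genes of the glucocorticoid list that are also in another list take the colour of the latter. Saa1, Saa2 and Lcn2 lie far left at ZT0 and nearer 0 at ZT12 (−0.45, −1.0 and −1.34), and Tat lies on opposite sides of 0 (−0.64 and 0.96).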

How the data were processed

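Liver RNA of the 12 libraries was sequenced by the study over 100 cycles. The authors deposited FPKM values per gene symbol. The submitters' processing notes name TopHat and Cuffnorm and the build mm10, whereas the study's methods name ELAND v2e and RPKM. The labels name an unstranded library kit and the methods a stranded one. How reads were counted is thus uncertain, as are genes with close copies or antisense partners. Of 24138 lines, 289 repeated a symbol, leaving 23849 symbols, and 185 tested symbols name several genes. No column lacked a sample.

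Genes that averaged 1 FPKM or more across the 12 libraries were tested as log2(FPKM + 1) with limma 3.58.1 in R 4.3.3 (moderated test with trend, Benjamini-Hochberg adjustment) on the 6 ZT0 libraries. A fold change on this scale understates that of low genes. The same test was run at ZT12 and for the difference between times. The fits were tested on simulated data. Groups came from the labels. Where nothing says more, p-values measure the spread between these mice. Named genes are any with an adjusted p under 0.05, the 10 highest and 10 lowest called genes without overlap (small RNAs left out), up to 4 members of smallest p per list, and members that define a list or that the study names. Members and the 32 pathway and 12 marker lists were chosen with earlier results of these data known. Coordinates are those of GENCODE vM21 (mm10) and promoters those of RefSeq. Alternatives varied the pseudocount, the minimum, the scaling, the trend, the samples, the block, the test and the size of change, and left out each mouse. One gene of the lists is not reported here.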

Additional observations from a re-analysis of the deposited data

Results flagged for a closer look

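Among the genes named, the effect of gel took opposite signs at ZT0 and ZT12 and was called at both times in 3, and the difference itself was tested as an interaction in limma. For Tat the log2 fold change at ZT0 minus that at ZT12 was −1.60. For Cyp2c67 it was 1.49, with the gene higher at ZT0 (1.06) and lower at ZT12 (−0.43). For Sox9 it was −0.82, with the gene lower at ZT0 (−0.59) and higher at ZT12 (0.23). None of the 3 passed the adjustment over all genes (adjusted p of 0.519, 0.337 and 0.519).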

How the results depend on the processing

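Counts of genes called higher and lower were 335 and 570. They were 616 and 776 with no minimum FPKM (only the former differs by over 1.5 times), 216 and 358 with a minimum mean of 5 FPKM, and 77 and 122 with an absolute log2 fold change of at least 0.5. Leaving out 1 mouse at a time gave 186 to 469 higher and 339 to 719 lower genes, with the lowest counts without gel replicate 3, and 0 to 7 genes with an adjusted p under 0.05. That count was 69 in the Cyber-T style test. Fewer or more genes or samples enter some of these settings, and the cause of other changes was not tested. Replicate numbers did not pair the mice (r of same-numbered deviations −0.279, −0.0756 and 0.0503). With the replicate number as a block, 339 genes were higher, 455 lower and 2 passed the adjustment (Saa1 and Saa2, adjusted p = 0.0289). Of 74 named genes that were called, 60 stayed called and 74 kept their sign in the 6 fits without 1 mouse. Cd36, not called, ranged from −0.47 to 0.11 in these fits, and turned to 0.11 without vehicle replicate 1 and to 0.02 without gel replicate 3. Over all settings, 1197 of 1266 values of named genes kept their direction and side of the threshold. Low depth limits genes near 1 FPKM most, and read totals were not used here.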
